A study of Mus musculus with 6 samples.

Results

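Metallothioneins are small cysteine-rich proteins that bind zinc and copper, and together with the zinc transporters they set how much free zinc a cell holds. The 10 genes examined here included 3 metallothionein genes (Mt1, Mt2 and Mt3) and Mtf1, which encodes the metal-responsive transcription factor that induces metallothioneins. The others were the zinc exporter Slc30a1, the exporter Slc30a10, known mainly for manganese, and 4 importers (Slc39a8, Slc39a10, Slc39a13 and Slc39a14). The 10 genes were taken by name, by matching the Ensembl identifiers of the deposited table to gene symbols. All 10 were among its 29616 genes. The series holds 6 RNA libraries of bone cells from mice labelled C57BL/6 (C57BL/6J in the study's methods), 3 of them control and 3 after treatment with the synthetic glucocorticoid dexamethasone. Treatment began at 8 weeks of age and lasted for 4 weeks, with a daily dose of 0.08 µg/g. The study's results describe the sequenced cells as Osteocalcin-positive cells from bones freed of marrow. The labels name no agent for the control mice, and the study gives saline as the control in its mouse experiments without naming the sequenced mice. Neither labels nor methods say whether a library came from 1 mouse or from several, so that the spread between libraries may be partly technical.

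In the textbook picture, zinc that enters the cytosol binds the transcription factor encoded by Mtf1, which then occupies metal response elements in the promoters of Mt1, Mt2 and Slc30a1. Glucocorticoids are also known inducers of Mt1 and Mt2 in several tissues. The SLC30 proteins move zinc out of the cytosol, whereas the SLC39 proteins move it into the cytosol from outside the cell or from organelles. In bone, Slc39a13 is known for its part in connective tissue and skeletal growth, and Slc39a14 also carries iron and manganese.

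Both promoters of the metallothionein genes with the most reads are shown because the core of the metal response element can be read directly in them. The core was searched as TGCACNC or TGCGCNC on both strands, in windows of 300 bases that hold 250 bases before and 50 bases after each start in RefSeq (assembly GRCm38.p6). The 250 bases before the start of Mt1 are chr8:94178839-94179088 and those of Mt2 are chr8:94172368-94172617, both on the plus strand. Capitals mark the cores, which appear as their reverse complement where they lie on the minus strand.
Mt1: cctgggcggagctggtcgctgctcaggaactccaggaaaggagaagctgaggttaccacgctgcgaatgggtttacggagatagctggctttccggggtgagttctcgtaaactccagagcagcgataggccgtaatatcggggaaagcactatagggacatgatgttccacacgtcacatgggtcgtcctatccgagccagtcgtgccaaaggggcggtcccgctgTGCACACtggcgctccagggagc
Mt2: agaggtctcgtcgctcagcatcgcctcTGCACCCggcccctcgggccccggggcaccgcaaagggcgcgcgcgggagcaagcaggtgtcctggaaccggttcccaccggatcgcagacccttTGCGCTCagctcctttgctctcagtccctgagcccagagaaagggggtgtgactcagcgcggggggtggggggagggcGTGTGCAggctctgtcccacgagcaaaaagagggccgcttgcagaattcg
Before its start, Mt1 had 1 core, with its first base at -23, where the first transcribed base counts as 1. Mt2 had 3 cores there, at -223 and -128 on the plus strand and at -50 on the minus strand.

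Further cores lay just behind the starts, and those of Mt1 and Mt2 are shown with their surroundings in 30 bases. Mt1 had cores at 3 (chr8:94179080-94179109) and 21 (chr8:94179098-94179127), and Mt2 had 1 at 5 (chr8:94172611-94172640).
Mt1, core at 3: ccagggagctcTGCACTCcgcccgaaaagt
Mt1, core at 21: cgcccgaaaagTGCGCTCggctctgccaag
Mt2, core at 5: gaattcgggtcGTGCGCAggcccaggggcg
The exporter Slc30a1 had 1 core before its start, at -43 on the minus strand (chr1:191906727-191906756, plus strand shown).
Slc30a1, core at -43: acgggggttccGAGTGCAaagcaaagtttt
A window was found for 9 of the 10 genes, all but Slc39a14, whose promoter was therefore not searched. Before the start, Slc30a10 had 3 cores, 2 of which overlap each other on opposite strands, and Slc39a8 had 1 in the second of its 2 windows. Mt3, Mtf1, Slc39a10 and Slc39a13 had 0 before the start. Behind the start, Slc30a1 had a core at 31, Mt3 at 28 and Slc39a13 at 18. Among all 32851 promoter windows, 21.4% had at least 1 core before the start, 5.17% at least 2 and 1.26% at least 3. A core is therefore common, and a match is a description of the letters, not of occupancy. The full glucocorticoid response element was searched as AGAACA followed by any 3 bases and by its reverse complement. It was found in 3 of all windows (0.00913%), none of them belonging to these genes. With a match this rare, its absence from the windows of 9 genes carries no information, and sequence further away was not searched. The single unit AGAACA, on either strand, was present before the start of Mtf1 and of 16.1% of all windows. These windows follow the RefSeq start of each gene, and which start these cells used was not measured. The number and position of the cores, for Mt1 and Mt2 as well, hold for these starts only. Cores beyond the windows were not searched.

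The values are read counts per gene divided by a size factor for each library, called normalized counts here. A gene was tested with limma when its mean was at least 10 normalized counts, and p-values were adjusted over all 17442 tested genes. A gene was counted as rising or falling when its adjusted p was under 0.05, and as differentially expressed when its log2 fold change was also at least 1 in size. The libraries held 72596611 to 89910728 reads. The label of bone cells was checked with 13 osteoblast and osteocyte markers, of which 12 were in the table. Their summed level was 2009127 to 2137807 normalized counts in the control libraries and 2010812 to 2142757 in the dexamethasone libraries, mostly type I collagen in the former and Spp1 in the latter. The near-equal sums cover a shift within the list, in which 10 of 12 tested markers were differentially expressed, 8 lower and 2 higher, with a median log2 fold change of -1.51. The transcription factor genes Runx2 and Sp7 differed by -1.75 and -1.86 and Col1a1 by -1.88 on the log2 scale, whereas Spp1 differed by 5.25 and Dmp1 by 7.16. Bglap and Bglap2 are Osteocalcin genes, and the cells were sorted by Osteocalcin protein. Bglap had only 104 to 139 reads per control library and 10 to 13 per dexamethasone library. Bglap2 had 340 to 369 and 28 to 31 (log2 fold change -3.33). Other sets of markers moved with treatment: all 12 proliferation genes were differentially expressed and higher, with a summed level of 47719 to 51176 normalized counts in control and 275486 to 293155 in dexamethasone libraries. The summed level of 11 blood cell markers was 825 to 851 in control and 1609 to 1799 in dexamethasone libraries, with Vav1 at 3 reads or fewer in every library. Of the 8 tested, 2 were differentially expressed and higher (Cd53 and Itgb2) and 2 lower (Laptm5 and Coro1a). The summed level of 7 endothelial markers was 4681 to 4828 and 5652 to 6205, mostly Flt1, with Cdh5 at 3 reads or fewer throughout. Of the 6 tested, 4 were higher and 0 lower at an adjusted p under 0.05. Only Esam was differentially expressed (log2 fold change 1.20), and Tek differed by -0.75 (limma adjusted p = 0.146). The summed level of 5 smooth muscle and pericyte markers was 140822 to 148428 and 12038 to 13039, almost all Acta2. Of the 4 tested, 0 were higher and 2 lower at an adjusted p under 0.05. These were Acta2 and Myh11 (log2 fold change -0.89, limma adjusted p = 0.0102). Tagln differed by 0.06 (limma adjusted p = 0.787) and Rgs5 by 0.72 (limma adjusted p = 0.0511) on the log2 scale. The 6 adipocyte markers summed to 28.4 to 36.0 in control and 1437 to 1545 in dexamethasone libraries, the latter almost all Fabp4. The 5 red cell markers summed to 30.3 to 37.6 and 20.99 to 49.1, and the 5 skeletal muscle markers to 63.3 to 79.3 and 55.6 to 73.5. The part of these cell populations in the values below was not tested, and in bulk RNA more cells of a type and more RNA per cell cannot be told apart.

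Mt1, Mt2 and the importer gene Slc39a14 were several-fold higher with dexamethasone, whereas the exporter gene Slc30a1 and the importer gene Slc39a13 were lower. Of the 10 genes, 7 had enough reads to be tested, and 3 of these were differentially expressed, all higher. Among all tested genes, 22.3% were differentially expressed and 11.7% were so with higher values. Each of the 3 had a log2 fold change above 2, which 4.55% of all tested genes reached. All 7 had an adjusted p under 0.05, 5 higher and 2 lower, a threshold that 72.5% of all tested genes passed (37.2% higher and 35.2% lower). Control and dexamethasone libraries did not overlap for any of the 7, as was the case for 74.7% of all tested genes. The median log2 fold change of the 7 was 0.58, against 0.00 over all tested genes.

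**Figure D1:**
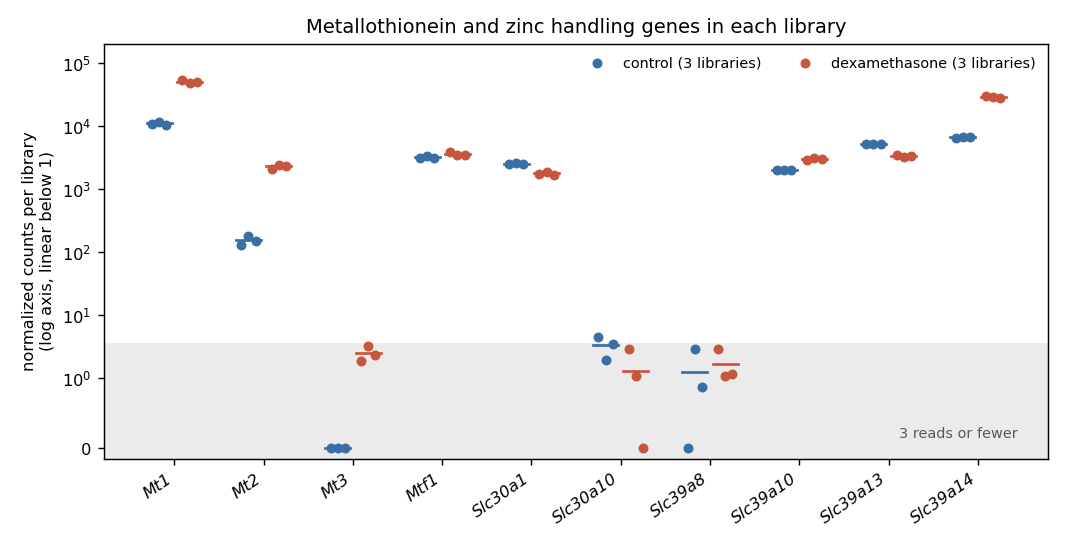
Normalized counts of the 10 genes in each library, on a log axis that is linear below 1, with 3 control libraries (blue) and 3 dexamethasone libraries (red) per gene and a line at each mean. Mt1, Mt2 and Slc39a14 were separated by several-fold between the groups, whereas Mt3, Slc30a10 and Slc39a8 lay in or near the grey band of 3 reads or fewer.

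Mt1 was the most abundant metallothionein transcript in both groups. Control replicates 1 to 3 held 10839, 11728 and 10329 normalized counts, and dexamethasone replicates 1 to 3 held 53019, 48268 and 49261. Every dexamethasone library was above every control library by more than 4-fold. The mean rose from 10965 ± 708 (SD, n = 3) to 50182 ± 2506 (SD, n = 3), a ratio of 4.58. Its log2 fold change was 2.19 (standard error 0.0438, 95% confidence interval 2.10 to 2.29, limma adjusted p = 1.8e-23). That difference was higher than those of 96.1% of all tested genes. It was between 2.08 and 2.24 under the 18 alternatives tried and differentially expressed in each.

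Mt2 encodes the second ubiquitous metallothionein and lies next to Mt1. Its normalized counts were 130.4, 183 and 152.9 in control replicates 1 to 3, compared with 2107, 2423 and 2357 in dexamethasone replicates 1 to 3. The groups were far apart, while the control libraries differed among themselves by more in proportion than the dexamethasone libraries did. The mean rose from 155 ± 26.4 (SD, n = 3) to 2296 ± 167 (SD, n = 3), a ratio of 14.8. Its log2 fold change was 3.89 (standard error 0.0902, 95% confidence interval 3.70 to 4.07, limma adjusted p = 4.05e-22), higher than those of 99.1% of all tested genes. It was between 3.77 and 4.01 under the alternatives and differentially expressed in each of the 18. In the GENCODE M21 annotation, 73.5% of the exon bases of Mt2 overlap the predicted gene Gm45774 on the opposite strand. The control libraries held 10.1, 4.89 and 7.91 normalized counts of Gm45774 and the dexamethasone libraries 96.3, 103.6 and 109 (log2 fold change 3.64, limma adjusted p = 1.34e-11). The kit marked strand, but whether the count used it is not given in the sources used here, so that reads of these overlapping genes cannot be told apart. Read on their own strand, the transcripts of the 10 genes shared none of their 75-base stretches with another annotated gene, which does not cover the overlap on the opposite strand.

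Mt3, which encodes the metallothionein best known from brain, had 0 reads in each control library and 2, 3 and 2 reads in dexamethasone replicates 1 to 3. All of these counts were within the limit of 3 reads that a count of 0 allows, which covers counting error only. Summed over each group, 0 against 7 reads gave an exact 95% interval of the ratio that began at 1.66, above 1. It also covers counting error only. When genes with few reads were also tested, Mt3 passed both cut-offs (limma adjusted p = 0.0157), but no fold is given at these counts.

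**Figure D2:**
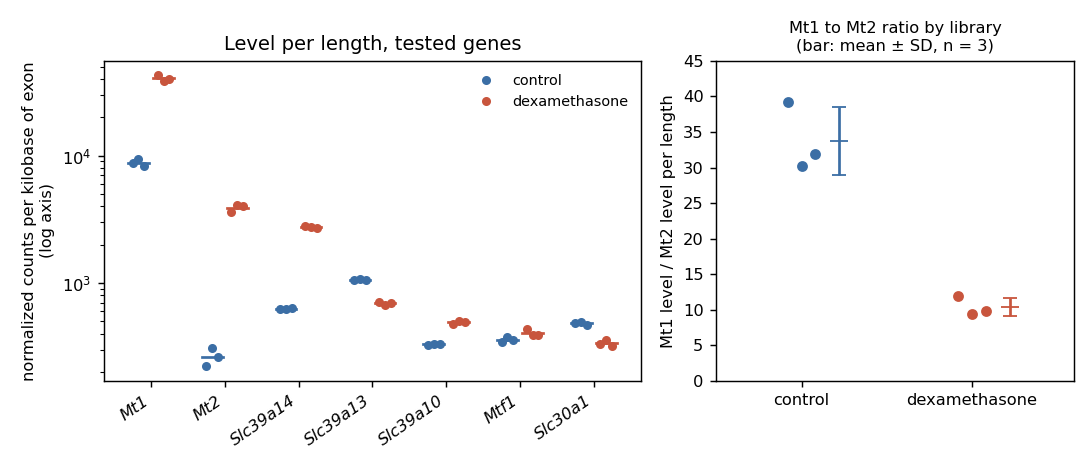
Left, normalized counts per kilobase of exon for the 7 tested genes in each library (log axis, line at the mean). Right, the ratio of the Mt1 level to the Mt2 level in each library, with the mean ± SD of 3 libraries. The ratio was 30.2 to 39.2 in control and 9.40 to 11.9 in dexamethasone libraries. Its size depends on how reads in the overlap of Mt2 with Gm45774 were counted.

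The mixture of the metallothionein transcripts changed along with their amount. Because Mt1 and Mt2 are counted in the same library, the ratio of their levels per exon base does not depend on the size factors. It was 39.2, 30.2 and 31.9 in control replicates 1 to 3, compared with 11.9, 9.40 and 9.86 in dexamethasone replicates 1 to 3. Mt1 thus exceeded Mt2 in every library, by a mean of 33.8 ± 4.79 (SD, n = 3) in control and 10.4 ± 1.32 (SD, n = 3) in dexamethasone libraries. The groups did not overlap. The level of Mt2, and so the size of this ratio, also depends on how reads in its overlap with Gm45774 were counted. That is not known, and Mt1 has no such overlap. With 3 libraries against 3, an exact two-sided permutation test cannot give a p below 0.1. Leaving out each library in turn gave mean ratios of 31.1 to 35.6 in control and 9.63 to 10.9 with dexamethasone. Together, Mt1 and Mt2 took 0.0135% to 0.0150% of the reads of a control library and 0.0611% to 0.0643% of those of a dexamethasone library.

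Levels per kilobase of exon place the 7 tested genes on a common scale within each group. In the control libraries Mt1 had the highest level, 8800 ± 568 (SD, n = 3) normalized counts per kilobase, followed by Slc39a13 at 1060 ± 12.4 and Slc39a14 at 627 ± 7.20. Slc30a1 at 481 ± 12.1, Mtf1 at 357 ± 15.7, Slc39a10 at 330 ± 2.59 and Mt2 at 264 ± 44.9 came next, so that Mt2 was lowest. With dexamethasone Mt1 was again first, at 40275 ± 2011, but Mt2 was second at 3904 ± 283, ahead of Slc39a14 at 2751 ± 70.5. Slc39a13 at 692 ± 21.4, Slc39a10 at 493 ± 12.5, Mtf1 at 404 ± 26.3 and Slc30a1 at 337 ± 17.6 completed that order, in which the exporter had become the lowest. Neighbours in either order did not overlap in range over the 3 libraries. Among the 28103 genes with a length, Mt1 moved from rank 278 to rank 37 by level, and Mt2 from rank 8459 to rank 823. Taking the longest transcript as the length left the control order as it was, but put Slc39a14 at 5672 ± 145 above Mt2 at 4493 ± 326 with dexamethasone. The order between genes thus rests on the annotated length, whereas the difference of 1 gene between groups does not. The place of Mt2 in the order also rests on how reads in its overlap with Gm45774 were counted.

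**Figure D3:**
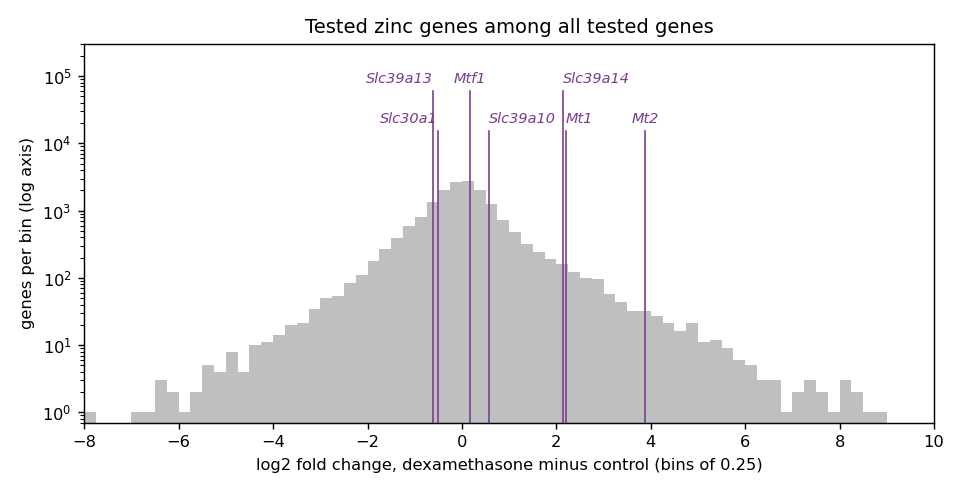
Histogram of the log2 fold changes (dexamethasone minus control, bins of 0.25, log count axis) of all 17442 tested genes, with a vertical line for each of the 7 tested zinc genes. Mt1, Mt2 and Slc39a14 lay in the upper tail, and the other 4 lay between -0.62 and 0.58, within the bulk of the distribution.

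Mtf1, the zinc-sensing regulator itself, differed little. Control replicates 1 to 3 had 3055, 3332 and 3160 normalized counts, whereas dexamethasone replicates 1 to 3 had 3872, 3448 and 3488. The highest control library was close to the lowest dexamethasone library. The mean was 3182 ± 140 (SD, n = 3) in control and 3603 ± 234 (SD, n = 3) with dexamethasone, a log2 fold change of 0.18 (95% confidence interval 0.08 to 0.27, limma adjusted p = 0.00134). The rise did not hold under every scaling. When all libraries were given the same total, the log2 fold change of Mtf1 was 0.06 (limma adjusted p = 0.129), and after quantile normalization it was 0.03 (limma adjusted p = 0.497). These scalings lowered the median of all genes by 0.11 and 0.08 on the log2 scale, and the other 6 tested genes kept their direction and an adjusted p under 0.05 under both.

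Among the exporters, Slc30a1, which carries zinc out across the plasma membrane, was lower with dexamethasone. Its normalized counts in control replicates 1 to 3 were 2535, 2581 and 2456, and those in dexamethasone replicates 1 to 3 were 1753, 1866 and 1684. No dexamethasone library reached the lowest control library. The mean fell from 2524 ± 63.3 (SD, n = 3) to 1768 ± 92.1 (SD, n = 3), with a log2 fold change of -0.51 (95% confidence interval -0.61 to -0.42, limma adjusted p = 3.32e-10). Slc30a1 thus moved opposite to Mt1 and Mt2. Its promoter window, like theirs, holds the metal response core, as do 25.7% of all windows of 300 bases. Any part of the core in these differences was not tested. The alternatives placed the difference between -0.66 and -0.48. Slc30a10, which encodes an exporter known mainly for manganese, was covered by 5, 2 and 4 reads per control library and 3, 1 and 0 reads per dexamethasone library. The ratio of its summed counts, corrected for the size factors, was 0.418 with an exact 95% interval of 0.0971 to 1.41, which includes 1, and a difference was not detectable at this depth.

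Among the importers, Slc39a14 changed the most. It encodes a plasma membrane importer of zinc, iron and manganese that is known to be induced in inflammation. Normalized counts of 6550, 6586 and 6696 in control replicates 1 to 3 stood against 29788, 28981 and 28302 in dexamethasone replicates 1 to 3. The libraries of a group lay within a few percent of each other. The mean rose from 6611 ± 76.0 (SD, n = 3) to 29024 ± 744 (SD, n = 3), a ratio of 4.39 and a log2 fold change of 2.13 (standard error 0.0345, 95% confidence interval 2.06 to 2.21, limma adjusted p = 2.86e-25). Its difference was higher than those of 95.9% of all tested genes and close in size to that of Mt1, and it was between 1.98 and 2.15 under the alternatives. No annotated gene overlapped its exons. With both changes, the count ratio of the importer Slc39a14 to the exporter Slc30a1 was between 2.55 and 2.73 in control libraries. In dexamethasone libraries it was between 15.5 and 16.99. These counts are not divided by length. The pair does not stand for all transporters, since the importer gene Slc39a13 fell and Slc30a4, of the exporter family, rose.

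Slc39a10, another plasma membrane zinc importer, rose by less. It had 1996, 2024 and 2023 normalized counts in the control libraries and 2917, 3064 and 3026 in the dexamethasone libraries. Its control values were nearly equal and all lay below the dexamethasone values. The mean rose from 2014 ± 15.8 (SD, n = 3) to 3002 ± 76.3 (SD, n = 3), a log2 fold change of 0.58 (95% confidence interval 0.49 to 0.66, limma adjusted p = 4.42e-12), and the alternatives gave 0.42 to 0.60.

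Slc39a13, which encodes an importer of intracellular membranes, moved the other way. It had 5094, 5212 and 5176 normalized counts in the control libraries and 3453, 3252 and 3399 in the dexamethasone libraries, so that all dexamethasone values were well below the controls. The mean fell from 5161 ± 60.5 (SD, n = 3) to 3368 ± 104 (SD, n = 3), with a log2 fold change of -0.62 (95% confidence interval -0.69 to -0.54, limma adjusted p = 2.25e-13), and the alternatives gave -0.79 to -0.59. In that annotation 4.42% of its exon bases overlap Psmc3 on the opposite strand, whose log2 fold change was 0.00. The corresponding overlaps were 8.09% for Mtf1 and 8.92% for Slc30a1, and Mt1, Slc39a10 and Slc39a14 had none. Slc39a8, a further plasma membrane importer, was covered by 0, 3 and 1 reads per control library and 3, 1 and 1 reads per dexamethasone library. All were within the limit of 3 reads. The importers with reads thus split into 2 that rose and 1 that fell.

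A list of other zinc genes held a further metallothionein that was higher with dexamethasone. Of 20 genes on it, 19 were in the table and 14 were tested, of which 1 was differentially expressed, against 22.3% of all tested genes. At an adjusted p under 0.05, 4 were higher, 6 were lower and 4 did not pass, against 37.2% higher and 35.2% lower over all tested genes, and the median log2 fold change was -0.11. At the same total these counts were 2 higher and 8 lower, and after quantile normalization 2 higher and 9 lower. The differentially expressed gene was Mt4, known as the metallothionein of stratified epithelia, with 1, 0 and 0 reads in control replicates 1 to 3 against 34, 36 and 28 reads in dexamethasone replicates 1 to 3. The ratio of its summed counts was 113 with an exact 95% interval of 19.8 to 4496, which covers counting error only. Its fitted log2 fold change of 4.84 (limma adjusted p = 7.8e-09) depends on the added count, and was 2.91 to 6.70 under the 16 alternatives that could test it. With dexamethasone, Mt4 had 87.3 ± 9.79 (SD, n = 3) normalized counts per kilobase of exon, below each of the 7 tested genes above.

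Slc30a4, which loads zinc into intracellular vesicles, had the most reads of these transporters. It had 18626, 19044 and 18616 normalized counts in the control libraries and 30118, 30092 and 29902 in the dexamethasone libraries (log2 fold change 0.68, limma adjusted p = 3.49e-15). Among the SLC39 importers with the most reads, Slc39a6 differed by -0.08 on the log2 scale (limma adjusted p = 0.0692) and Slc39a1 by 0.13 (limma adjusted p = 0.00512). The direction of Slc39a1 reversed to -0.07 after quantile normalization, and that of Slc30a7 from 0.12 to -0.08. The 6 genes that fell were Slc30a5, Slc30a6, Slc30a9, Slc39a3, Slc39a7 and Slc39a9, with log2 fold changes between -0.52 and -0.09 that stayed negative under every scaling. These 6 and Slc30a7 were named after their values were seen. Slc30a2, Slc30a3, Slc39a4, Slc39a12 and Tmem163 had too few reads to be tested, with at most 13 reads in a library, and Slc30a8 was not analysed here.

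**Figure D4:**
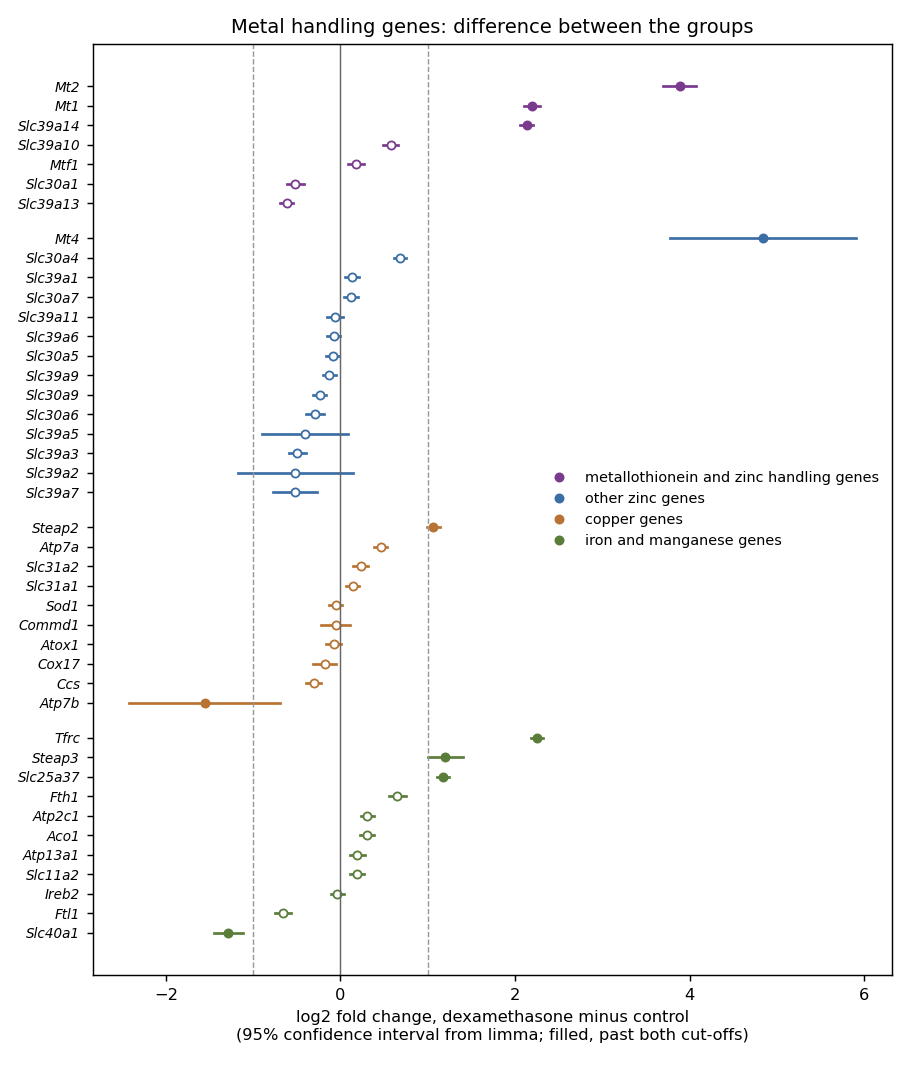
Log2 fold changes (dexamethasone minus control) with 95% confidence intervals from limma for the tested genes of 4 lists, with dashed lines at the cut-off of 1 and filled points for differentially expressed genes. Mt1, Mt2, Mt4, Slc39a14 and Tfrc lay above 2, whereas most other zinc and copper genes lay between -1 and 1.

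Copper is the other metal that metallothioneins hold in many cells. Of 11 copper genes, 10 were tested and 2 were differentially expressed, against 22.3% of all tested genes, with a median log2 fold change of -0.05. At an adjusted p under 0.05, which 72.5% of all tested genes passed, 4 were higher and 3 lower. These counts became 3 and 5 at the same total and 2 and 5 after quantile normalization. Steap2, a metalloreductase, had 14993 to 15581 normalized counts in control and 31826 to 32066 in dexamethasone libraries (log2 fold change 1.06, limma adjusted p = 3.5e-19). Its value was 0.95 at the same total and 0.90 after quantile normalization, under the cut-off. Atp7b, a copper-exporting pump, had 21, 25 and 40 reads in control and 12, 3 and 11 in dexamethasone libraries (log2 fold change -1.56, limma adjusted p = 0.00186). Without dexamethasone replicate 2, which had the fewest reads, the value was -1.02 (limma adjusted p = 0.0122), and the 16 alternatives that could test Atp7b gave -1.86 to -1.02. Atp7a, the other copper-exporting pump on the list, had far more reads and moved the other way. It had 4361 to 4447 normalized counts in control and 5903 to 6191 in dexamethasone libraries (log2 fold change 0.46, limma adjusted p = 2.79e-11). That value stayed positive under every scaling, and Atp7a was named after its values were seen. For Sod1, the copper and zinc superoxide dismutase, the difference was -0.05 on the log2 scale (limma adjusted p = 0.199), and -0.17 at the same total (limma adjusted p = 2e-05).

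Iron and manganese share the transporter encoded by Slc39a14 with zinc. Of 12 genes that handle them, 11 were in the table and tested, and 4 were differentially expressed, against 22.3% of all tested genes, with a median log2 fold change of 0.30. At an adjusted p under 0.05, 8 were higher and 2 lower, against 37.2% and 35.2% of all tested genes. These counts became 8 and 3 at the same total and 6 and 3 after quantile normalization. Tfrc, the transferrin receptor that takes up iron, had 3972, 4110 and 4217 normalized counts in control and 19410, 19855 and 19327 in dexamethasone libraries (log2 fold change 2.25, limma adjusted p = 1.68e-25). This was close in size to the differences of Slc39a14 and Mt1. Slc40a1, which encodes the iron exporter ferroportin, had 715, 641 and 654 normalized counts in control and 296, 280 and 249 in dexamethasone libraries (log2 fold change -1.28, limma adjusted p = 4.6e-13). Tfrc thus moved in the direction of the importer Slc39a14, and Slc40a1 in that of the exporter Slc30a1. Steap3, an endosomal iron reductase, and Slc25a37, a mitochondrial iron importer, differed by 1.20 and 1.18 on the log2 scale, the latter by 0.97 after quantile normalization. The ferritin subunits moved apart, with Fth1 at 0.65 (limma adjusted p = 8.27e-12) and Ftl1 at -0.66 (limma adjusted p = 1.4e-12).

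The metallothionein genes form a cluster, and the protein-coding genes around it were examined after these results were seen. In chromosomal order they were Ogfod1, Bbs2, Mt4, Mt3, Mt2, Mt1, Nup93 and Slc12a3. The log2 fold changes of Ogfod1 and Bbs2, on the Mt4 side, were 0.47 and -0.27, and that of Nup93, a nuclear pore gene next to Mt1, was 1.01 (limma adjusted p = 1.02e-17). Slc12a3 had 13.2 to 30.3 normalized counts in control and 25.8 to 29.4 in dexamethasone libraries, which overlapped. None of these 4 neighbours differed by as much as Mt1, Mt2 or Mt4.

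**Figure D5:**
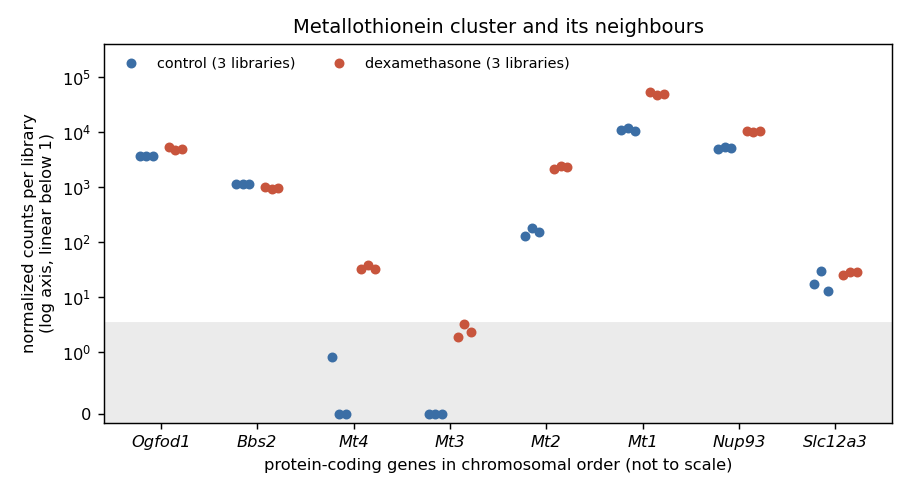
Normalized counts per library (log axis, linear below 1) for the protein-coding genes of the metallothionein cluster and its neighbours, in chromosomal order and not to scale, with 3 control (blue) and 3 dexamethasone (red) libraries each and a grey band at 3 reads or fewer. Mt4, Mt2 and Mt1 were separated most between the groups, and Slc12a3 overlapped.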

How the data were processed

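The deposited table holds gene counts divided by size factors (signal) in 6 libraries. According to the study's methods and the submitters' processing notes, the authors made libraries with a KAPA stranded kit, counted reads per gene with STAR 2.7.10a (build GRCm39) and normalized with DESeq2 1.36.0. Which annotation was counted, and whether the count used strand, is not given in the sources used here. Every value (100%, within 0.001 of a read) was a whole number of reads, which gave back the counts.

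Symbols, exon lengths and overlaps were taken from GENCODE M21, which gave a symbol to 28087 of the 29616 genes. Values were compared as log2(normalized count + 1) with limma 3.58.1 (mean-variance trend, R 4.3.3), with Benjamini-Hochberg adjustment over the 17442 genes with a mean of at least 10. The added 1 makes the fold changes of genes with few reads smaller. The cut-offs are those of the study's methods. The 10 genes and all lists were chosen with earlier results of these data known. Besides the 10 genes, those named are mostly differentially expressed metal genes and those with the highest means. Most cell type markers were named after their values were seen. Alternatives covered the added count, filters, scalings, replicate numbers, each library, edgeR 4.0.16 and DESeq2 1.42.0. The fits were first tested on simulated data. Chi-square values per degree of freedom between replicate libraries were 3.27 to 26.1, above the value of 1 that sampling noise alone gives. Intervals and limits of counts cover counting error only.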

Additional observations from a re-analysis of the deposited data

How the results depend on the processing

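The number of differentially expressed genes over the whole table was 3894, and 3878 to 3910 when each library was left out. It was 2170 (1350 higher, 820 lower) with a mean of at least 100 and 12645 without a cut-off on the fold change, under which the counts were 7 in place of 3 for the 10 genes, 10 in place of 1 for the other zinc genes, 7 in place of 2 for the copper genes and 10 in place of 4 for the iron and manganese genes. On the recovered reads edgeR called 3944 genes and DESeq2 3870. Without a filter on low values Mt3, Tmem163 and Steap4 were added, which made 4 of the 10 genes, 2 other zinc genes and 3 copper genes. With a mean of at least 100, or at least 10 in every library, fewer genes were tested, and 0 other zinc genes and 1 copper gene were differentially expressed, since Mt4 and Atp7b gave no value. At the same total and after quantile normalization the copper genes had 1, as Steap2 missed the cut-off. Among the 28 named genes with a test, 6 of 497 values under the alternatives changed sign. Slc39a1 was -0.0719 after quantile normalization and the neutrophil gene S100a9 -0.0190 at the same total. The red cell gene Alas2 differed by -0.09 on the log2 scale with all libraries (limma adjusted p = 0.824). Its value was 0.0300 after quantile normalization, 0.0196 with DESeq2 and -0.50 to 0.25 when each library was left out. Slc39a1 without control replicate 1 was 0.09 (limma adjusted p = 0.0685). Slc39a6 had an adjusted p under 0.05 under 6 of 18 alternatives. Leaving out each library changed no count for the 10 genes (3), the other zinc genes (1), the copper genes (2) or the iron and manganese genes (4). With the replicate number as a block, 3897 genes were differentially expressed, and the same counts of 3, 1, 2 and 4 were found in the 4 lists, so that the block ended no call in them. The numbers did not pair libraries across groups, as the deviations of same-numbered libraries from their group means had correlations of -0.0999, -0.105 and -0.0199 across genes. Mt3, Slc30a10 and Slc39a8 had at most 5 reads in a library, which limits what can be said of them at this depth.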
